A study of Rattus norvegicus with 72 samples.

Results

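Hypothalamus of female rat pups that carried a UBE3A deletion labelled as derived from the mother was compared at postnatal day 9 (P9) with hypothalamus of litter-matched wild-type (WT) pups. The comparison rests on 6 RNA libraries of the 72 libraries in the series, 3 from WT and 3 from deletion pups, chosen by their labels for tissue, parent of origin, age and genotype. The series holds 48 RNA libraries, 24 from hypothalamus and 24 from cortex, and 24 DNA libraries that were not analysed here. Each group is a set of 3 RNA libraries from female pups, and the groups whose deletion effects are compared are hypothalamus with the label maternal at P9 and at postnatal day 2 (P2), hypothalamus with the label paternal at P9, and cortex with the label maternal at P9, each as WT and as deletion. The remaining RNA groups are hypothalamus labelled paternal at P2, cortex at P2 and cortex labelled paternal at P9. They enter the fit of their tissue, and with it the filter, the scaling and the estimate of spread. Otherwise they serve to check the labels of tissue, age and parent of origin. The labels give no strain, no extent of the deletion, no tie of a library to a litter and no statement that libraries come from separate animals, and the spread behind each p-value is that of these libraries, which may be technical.

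UBE3A is an E3 ubiquitin ligase, an enzyme that marks proteins for degradation by the proteasome. In mature neurons the gene is transcribed mainly from the chromosome inherited from the mother, because a long antisense transcript from the neighbouring imprinted domain keeps the paternal copy silent, whereas glia transcribe both copies. Loss of the maternal copy causes Angelman syndrome, a neurodevelopmental disorder. The hypothalamus is a mixture of peptide-secreting and other neurons, glia and vascular cells, and in such bulk tissue fewer cells of a type and less RNA per cell cannot be told apart.

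Rows of the count table are RefSeq accessions of other species (NM_ for mRNA, NR_ for noncoding RNA). The files do not pair them with gene names, and 0 of 184444 matched the rat accessions of the reference table used, so no pathway or cell type list could be read and accessions other than NM_173010 stand without names. NM_173010 is a mouse accession of Ube3a and served as the check of the labels. Other accessions of this gene, if counted, were not identified. Totals ran from 265462 to 531265 counts in the 3 WT libraries and from 218288 to 368139 in the 3 deletion libraries. The most abundant accession, NR_137294, took 15.3% to 19.3% of counts in WT and 18.1% to 19.4% in deletion libraries. Totals were mostly higher in hypothalamus labelled paternal at P9, at 437650 to 1165651 counts. The share of NR_137294 there was lower, at 5.26% to 11.4%.

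NM_173010 lay at overlapping levels in both genotypes. Levels are given in CPM, counts divided by library size on the usual scale, with library sizes adjusted by TMM, a scaling that assumes most accessions do not change. WT replicates 1, 2 and 3 held 26, 7 and 10 counts, or 53.0, 31.1 and 41.1 CPM. Deletion replicates 1, 2 and 3 held 5, 17 and 8 counts, or 27.5, 54.6 and 33.5 CPM. The groups overlapped, and the highest level of the 6 was in a deletion library. Counting error was wide at this depth, with an exact 95% Poisson interval of 8.92 to 64.1 CPM for deletion replicate 1 and 34.6 to 77.6 CPM for WT replicate 1. The WT mean was 41.7 ± 10.95 CPM against 38.5 ± 14.2 CPM with the deletion (SD, n = 3 each), and edgeR's quasi-likelihood fit gave a log2 fold change of -0.11 for NM_173010 (SE 0.395, 95% interval -0.92 to 0.70, adjusted p = 1 with Benjamini-Hochberg adjustment over all accessions). The sign turned to 0.14 for NM_173010 without WT replicate 1 and to 0.05 without deletion replicate 1, so no direction can be given.

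The same accession was low in deletion libraries that carry the other parental label. In hypothalamus labelled paternal at P9, WT replicates 1, 2 and 3 had 48.6, 52.8 and 37.0 CPM of NM_173010 and deletion replicates 7.09, 2.61 and 6.78 CPM, with no overlap. The log2 fold change of NM_173010 there was -2.89 (SE 0.399, Benjamini-Hochberg adjusted p = 0.000394 by edgeR quasi-likelihood), and NM_173010 was the only accession called, 0.0171% of 5840 tested. That call was lost when all libraries were thinned to the lowest total (log2 fold change of NM_173010 -2.65, Benjamini-Hochberg adjusted p = 0.999 by edgeR quasi-likelihood). The 95% interval for NM_173010 with the label maternal reached down to -0.92, above the upper end of the interval with the label paternal, -2.07. Tested directly, the effect labelled maternal minus that labelled paternal at P9 was 2.77 on the log2 scale for NM_173010 (SE 0.573, 95% interval 1.60 to 3.95, unadjusted p = 4.2e-05, edgeR quasi-likelihood test). NM_173010 had the lowest p of all accessions in this contrast, but its adjusted p over all of them was 0.148 (edgeR quasi-likelihood, Benjamini-Hochberg). A maternal deletion removes the copy that neurons use. In the deletion libraries with the label maternal no lower level of NM_173010 could be shown, although the interval down to -0.92 leaves room for one. The level of NM_173010 thus does not bear out the label, and the groups are called "labelled maternal" for that reason. What accounts for this was not tested.

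**Figure D1:**
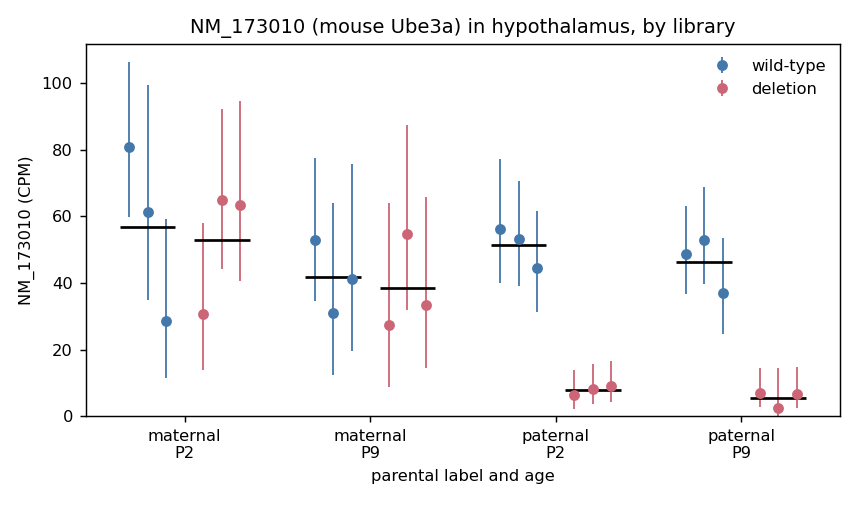
Level of NM_173010, a mouse accession of Ube3a, in each hypothalamus library (points, in CPM) by parental label and age, with exact 95% Poisson intervals for counting error (vertical lines) and group means (black bars). WT and deletion libraries overlap with the label maternal at both ages, at 31.1 to 53.0 and 27.5 to 54.6 CPM at P9, and are separate with the label paternal.

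At P2 with the label maternal NM_173010 did not separate the genotypes either. Levels at P2 ran from 28.7 to 80.7 CPM for WT and from 30.6 to 64.9 CPM in deletion libraries. Between P9 and P2 the deletion effect on NM_173010 differed by 0.03 (95% interval -1.04 to 1.10). In cortex labelled maternal at P9, WT libraries had 27.5, 37.2 and 6.29 CPM of NM_173010 and deletion libraries 11.2, 7.87 and 9.48 CPM. WT replicate 3 of cortex lay below all 3 deletion libraries there, and NM_173010 had a log2 fold change of -1.29 (SE 0.727, Benjamini-Hochberg adjusted p = 0.617 by edgeR quasi-likelihood). The genotypes also overlapped in cortex labelled paternal, unlike in hypothalamus with that label. NM_173010 there had 13.0 to 88.8 CPM for WT and 12.2 to 45.3 CPM for deletion at P9. At P2 it had 11.95 to 51.6 CPM for WT and 13.8 to 45.3 CPM for deletion.

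The labelled tissue could be checked without gene names. In the libraries labelled paternal, 75 NM_ accessions were higher in every hypothalamus library than in every cortex library, with a median of at least 10 CPM and at least 4 times the median of cortex, and 18 were higher in cortex by the same rule. These lists were chosen after the data were seen, from libraries that share nothing with the comparison, and levels of the lists are sums of CPM taken over NM_ counts alone. The hypothalamus list summed to 11950 to 17760 CPM in the 6 libraries, against 1485 to 3454 CPM in the 24 cortex libraries (part of which chose the list), so all 6 sit with hypothalamus. The cortex list differed between them. It summed to 891, 884 and 1631 CPM in WT replicates 1, 2 and 3 and to 1987, 1367 and 1180 CPM in deletion replicates 1, 2 and 3. Hypothalamus labelled paternal at P9 had 423 to 762 CPM of the cortex list, below all 6, but low levels there were part of the rule that chose the list. Hypothalamus labelled maternal at P2, which did not choose the list, spread from 580 to 1641 CPM. Cortex libraries, part of which chose the list, had 2372 to 3535 CPM. Deletion replicate 1 thus came nearest to cortex in the level of this list, and WT replicate 3 stood closer to it than to the other WT libraries. Over the 5723 accessions tested in both tissues, Pearson r with the mean of hypothalamus labelled paternal at P9 was 0.954, 0.934 and 0.909 in WT replicates 1, 2 and 3 and 0.888, 0.924 and 0.927 in deletion replicates 1, 2 and 3. With the mean of cortex labelled maternal at P9 it was 0.902, 0.888 and 0.906 in WT and 0.903, 0.908 and 0.878 in deletion replicates. Deletion replicate 1 was the only one of the 6 with the higher r to cortex, and WT replicate 3 had nearly equal values, as a description across accessions. The means used differ in parental label as well as in tissue, and deletion replicate 1 had the lowest total of the 6, 218288 counts. Tissue, label and depth cannot be told apart in these r values. The groups overlapped, and the mean of the cortex list was 1135 ± 429 CPM for WT against 1511 ± 422 CPM for deletion (SD, n = 3 each, two-sided exact permutation p = 0.3, where 0.1 is the smallest this design allows). Of the 10 cortex list accessions that were tested, 8 had a log2 fold change above 0 and their median was 0.44, and of the 71 tested hypothalamus list accessions 22 did and their median was -0.29, against a median of -0.004 over all 5840. No accession of the cortex list and 1 of the hypothalamus list reached an unadjusted p under 0.05, where 2.95% of all accessions did.

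**Figure D2:**
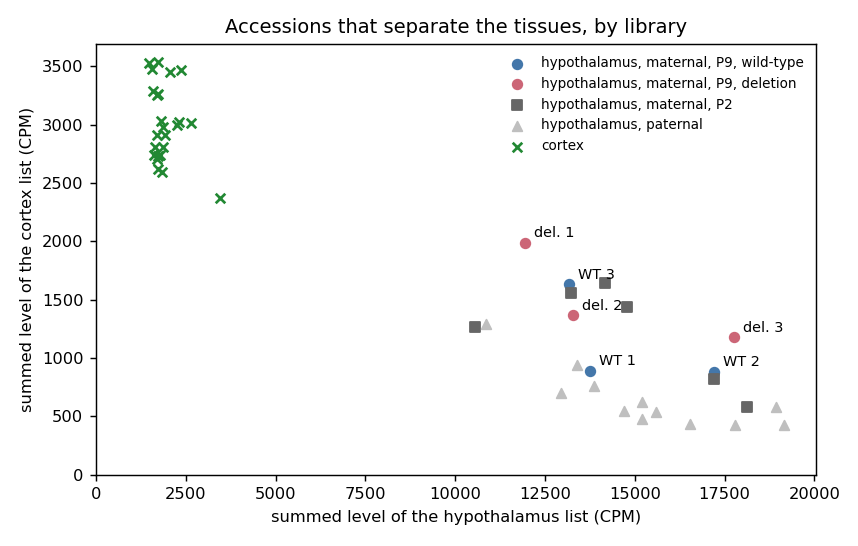
Summed level of 75 accessions high in hypothalamus (x axis, CPM) against that of 18 accessions high in cortex (y axis, CPM), 1 point per RNA library, with both lists chosen in libraries labelled paternal. The 6 libraries of the comparison (labelled points) lie at 11950 to 17760 CPM on the x axis and spread from 884 to 1987 CPM on the y axis.

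The labelled age was checked in a like way. From P2 to P9, 608 tested accessions rose and 466 fell in hypothalamus labelled paternal (edgeR, libraries with that label only). The mean log2 CPM of those that rose minus that of those that fell was 1.08, 1.24 and 0.63 in WT replicates 1, 2 and 3 and 0.64, 0.90 and 0.80 in deletion replicates 1, 2 and 3. All 6 lay above the range of the P2 libraries labelled maternal, -0.32 to 0.17. P9 libraries labelled paternal, part of those that chose these accessions, had 1.05 to 1.335. WT replicates 1 and 2 lay within that range. WT replicate 3 and all deletion libraries lay between it and the P2 range with the label maternal. Since the ranges come from different labels, and the P9 range from libraries that chose the accessions, no age between P2 and P9 can be read from this. WT and deletion libraries overlapped in this measure of age (exact permutation p = 0.4, two-sided).

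Across all accessions, calls were made at an adjusted p under 0.05. The quasi-likelihood test of edgeR, fitted to all 24 hypothalamus libraries with Benjamini-Hochberg adjustment, called 0 of 5840 accessions (0%), and the lowest adjusted p was 0.142. DESeq2's Wald test called 1, NM_001309242. At an unadjusted p under 0.05, 101 accessions were lower (1.73% of those tested) and 71 were higher (1.22%), together below the 292 of an even distribution of p. These became, when WT replicate 3 was left out, 178 lower and 139 higher of 6304 tested, and without WT replicate 1 the balance turned, with 92 lower and 111 higher of 6297 tested. Without any filter on low counts there were 304 lower and 294 higher of 36259 tested. The filter on low counts also kept far fewer accessions when only the 6 libraries were fitted, 3023, of which 1, again NM_001309242, was called.

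The spread between replicates was as large as that between genotypes. Pearson correlations of log2 CPM across accessions ran from 0.900 to 0.931 between WT libraries, from 0.904 to 0.929 between deletion libraries, and from 0.889 to 0.942 between a WT and a deletion library. The 3 deletion values lay wholly below the 3 WT values for 264 accessions (4.52%) and wholly above them for 242 (4.14%). Tested accessions had a median of 11 counts per library, and their median standard error was 0.42 on the log2 scale. With the accessions split by level into 3 classes of equal size, that error was 0.65 in the lowest class, 0.41 in the middle class and 0.25 in the highest class, and it holds both counting error and the spread between libraries. The share with an unadjusted p under 0.05 was 2.98%, 3.55% and 2.31% in these classes. Fitted changes of over 2-fold were found for 165 lower and 99 higher accessions in the lowest class but for 6 and 0 in the highest class. Among NR_ accessions 12 of 474 (2.53%) had an unadjusted p under 0.05, 8 of them higher, and among NM_ accessions 160 of 5366 (2.98%), 63 of them higher.

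**Figure D3:**
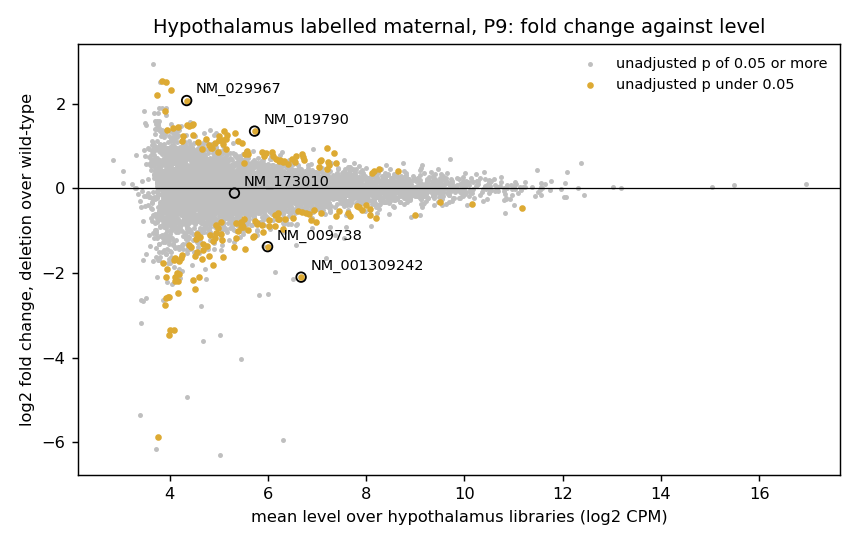
Log2 fold change of deletion over WT in hypothalamus labelled maternal at P9 (y axis) against mean level over the hypothalamus libraries (x axis, log2 CPM) for 5840 accessions, with the 172 at unadjusted p under 0.05 in yellow and the accessions named in the text circled. Fold changes spread widely at low levels and narrow towards high levels, NM_173010 lies near 0, and NM_001309242 lies at -2.10.

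The accessions that led the comparison without passing it were, by the lowest p among those whose groups did not overlap, NM_001309242 and NM_009738 among the lower and NM_019790 and NM_029967 among the higher. NM_001309242 had 120, 151 and 103 CPM in WT replicates 1, 2 and 3 (59, 34 and 25 counts) and 33.0, 25.7 and 29.3 CPM in deletion replicates 1, 2 and 3 (6, 8 and 7 counts). Separate groups were part of the rule that chose NM_001309242. The deletion libraries were close to one another, but at these counts the error of counting was far wider than their spread. Exact 95% Poisson intervals were 12.1 to 71.7, 11.1 to 50.6 and 11.8 to 60.3 CPM in deletion replicates 1, 2 and 3. The log2 fold change of NM_001309242 was -2.10 (SE 0.414, 95% interval -2.95 to -1.25, Benjamini-Hochberg adjusted p = 0.142 by edgeR quasi-likelihood). By DESeq2's Wald test NM_001309242 had a Benjamini-Hochberg adjusted p of 0.0263. Its adjusted p in edgeR was 0.0183 with only the 6 libraries and 5.99e-05 with no filter on low counts, and the range over all 17 alternatives was 5.99e-05 to 1 by edgeR or DESeq2 with Benjamini-Hochberg adjustment. Its log2 fold change stayed between -2.29 and -1.96 over these alternatives. With the ratio of the cortex list to the hypothalamus list as a covariate, the log2 fold change of NM_001309242 was -2.07 (Benjamini-Hochberg adjusted p = 0.295 by edgeR quasi-likelihood), and without WT replicate 3 and deletion replicate 1 it was -2.29 (Benjamini-Hochberg adjusted p = 0.469 by edgeR quasi-likelihood).

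In other libraries the deletion effect on NM_001309242 was of either sign, and no test of a difference in effect passed. At P2 with the label maternal its mean was 65.9 ± 46.1 CPM for WT against 50.5 ± 0.396 CPM for deletion (SD, n = 3 each), a log2 fold change of -0.29 (95% interval -1.06 to 0.48) with overlapping groups. With the label paternal at P9 it was 74.2 ± 8.53 and 98.96 ± 38.3 CPM (SD, n = 3 each), a log2 fold change of 0.37 (95% interval -0.24 to 0.99). The level of WT libraries labelled maternal at P9 was therefore higher, and that of deletion libraries lower, than either genotype of the hypothalamus labelled paternal at P9 had on average. The difference in deletion effect on NM_001309242 between the labels at P9 was -2.47 (SE 0.515, Benjamini-Hochberg adjusted p = 0.148 by edgeR quasi-likelihood), and that between P9 and P2 was -1.81 (SE 0.568, Benjamini-Hochberg adjusted p = 1 by edgeR quasi-likelihood). In cortex labelled maternal at P9, WT libraries had 108, 72.6 and 118 CPM of NM_001309242 and deletion libraries 57.0, 43.8 and 57.7 CPM. The groups did not overlap there either, with a log2 fold change of -0.91 for NM_001309242 (SE 0.333, unadjusted p = 0.0131, Benjamini-Hochberg adjusted p = 0.37 by edgeR quasi-likelihood). By p it ranked 298 of 8380 accessions tested in cortex. Of these, 627 were lower and 157 higher at an unadjusted p under 0.05, so a lower level in cortex was common.

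NM_009738 had 75.4, 71.1 and 94.5 CPM in WT replicates 1, 2 and 3 and 10.99, 41.7 and 33.5 CPM in deletion replicates 1, 2 and 3. Deletion replicate 1, with 2 counts, was the lowest, and the log2 fold change of NM_009738 was -1.38 (SE 0.344, unadjusted p = 0.000409, Benjamini-Hochberg adjusted p = 1 by edgeR quasi-likelihood). Without WT replicate 3 and deletion replicate 1, the libraries highest in the cortex list, it was -0.96. In cortex labelled maternal at P9 NM_009738 had 34.1 to 47.0 CPM for WT against 24.1 to 32.6 CPM for deletion libraries, with a log2 fold change of -0.65 (SE 0.211, unadjusted p = 0.00441, Benjamini-Hochberg adjusted p = 0.326 by edgeR quasi-likelihood). NM_009738 ranked 112 by p among the 8380 accessions tested in cortex. At P2 its log2 fold change was -0.21 (95% interval -0.82 to 0.41), and with the label paternal at P9 it was 0.11 (95% interval -0.40 to 0.63).

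NM_019790 had 20.4, 13.3 and 28.8 CPM in WT replicates 1, 2 and 3 (10, 3 and 7 counts) and 54.9, 48.2 and 58.6 CPM in deletion replicates 1, 2 and 3 (10, 15 and 14 counts). All deletion libraries were above all WT libraries, as the rule of choice required. The log2 fold change of NM_019790 was 1.35 (SE 0.371, unadjusted p = 0.0011, Benjamini-Hochberg adjusted p = 1 by edgeR quasi-likelihood). Its deletion level was within the range of the P2 libraries labelled maternal, whose means were 55.8 ± 14.7 CPM for WT against 64.7 ± 17.7 CPM for deletion (SD, n = 3 each). With the label paternal at P9 the log2 fold change of NM_019790 was also above 0, at 0.54 (95% interval 0.002 to 1.08), and in cortex labelled maternal at P9 it was -0.47 (95% interval -1.02 to 0.08).

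NM_029967 was near the limit of counting in WT libraries, with 1, 2 and 2 counts in replicates 1, 2 and 3, and had 3, 6 and 8 counts in deletion replicates 1, 2 and 3. Levels were 2.04, 8.88 and 8.22 CPM in WT and 16.5, 19.3 and 33.5 CPM in deletion libraries. The ratio of the summed counts of NM_029967, scaled to library size, was 4.45, with an exact 95% interval of 1.58 to 15.4 that covers counting error only. The fitted log2 fold change was 2.07 (SE 0.572, unadjusted p = 0.00116, Benjamini-Hochberg adjusted p = 1 by edgeR quasi-likelihood), and without WT replicate 1, the library with 1 count, it was 1.41. At P2 with the label maternal the sign was the opposite, with a log2 fold change of -0.48 (95% interval -1.35 to 0.39). With the label paternal at P9 it was 0.48 (95% interval -0.24 to 1.21), and in cortex labelled maternal at P9 it was 0.06 (95% interval -0.49 to 0.60).

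**Figure D4:**
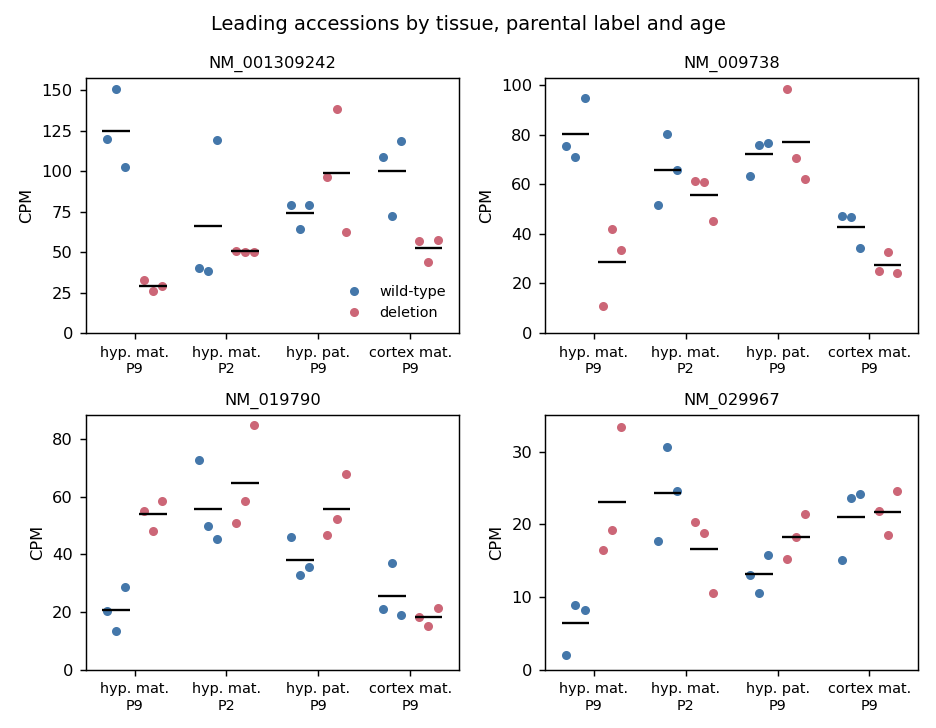
Levels (CPM) of the 4 leading accessions in each library of WT (blue) and deletion (red) pups, with group means (black bars), in hypothalamus (hyp.) labelled maternal (mat.) at P9 and P2, hypothalamus labelled paternal (pat.) at P9 and cortex labelled maternal at P9. The groups are separate at the left of every panel, by which the accessions were chosen, and NM_001309242 and NM_009738 are also separate in cortex labelled maternal at P9.

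The 172 accessions with an unadjusted p under 0.05 were compared with the deletion effect in libraries that share nothing with the comparison. At P2 with the label maternal, 84 of the 172 (48.8%) had the same sign, against 49.8% of all 5840 accessions. With the label paternal at P9 the same sign was found for 86 of the 172 (50%), against 50.6% of all. In cortex labelled maternal at P9, where 168 of them were tested, 84 (50%) had the same sign, against 48.3% of all 5723 accessions tested in both tissues. Among these, 55 of the 97 that were lower in hypothalamus (56.7%) were also lower in cortex, and 29 of the 71 that were higher (40.8%) were also higher. Both sets leaned lower in cortex, where 51.1% of all 5723 were lower. Log2 fold changes over all tested accessions had a Pearson r of 0.03 with those at P2, 0.05 with those labelled paternal at P9 and -0.05 with those in cortex, as a description across accessions that share libraries and are not independent.

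Neither difference of effects gave a call. For the change in deletion effect from P2 to P9 with the label maternal, edgeR called 0 of 5840 (0%) and DESeq2 0, while 146 had an unadjusted p under 0.05 in edgeR. The effect labelled maternal minus that labelled paternal at P9 had 0 calls (0%) in edgeR and 0 in DESeq2, while 115 accessions had an unadjusted p under 0.05. With the label maternal at P2 both tools called 0 (0%), while 97 accessions had an unadjusted p under 0.05 in edgeR. In cortex labelled maternal at P9 there were 0 calls among 8380 (0%) in edgeR. DESeq2 called 11 of the 7242 to which it gave an adjusted p, all of them lower. Without WT replicate 3 of cortex, edgeR called 321 of 8090 tested, 309 lower and 12 higher. With no cortex library left out, 784 accessions had an unadjusted p under 0.05 in edgeR, 627 lower and 157 higher. An even distribution of p gives 419.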

How the data were processed

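RNA was sequenced after rRNA depletion with a directional kit, per the labels' protocols, and alignment tool and genome, per the submitters' processing notes, were STAR with rn6 (Rnor_6.0). For the counter, its annotation and its strand setting, nothing was given in the sources used here. The authors deposited raw counts per RefSeq accession. In R 4.3.3, edgeR 4.0.16 (filterByExpr, TMM, 1 mean per group, robust quasi-likelihood) was fitted to all 24 hypothalamus libraries, which gave 5840 tested accessions, 16 residual degrees of freedom and a biological coefficient of variation of 22.3%, and likewise to 24 cortex libraries. SEs were derived from the F statistic. DESeq2 1.42.0 was run on the same accessions. Correlations and the age measure used log2(CPM + 5). Libraries were grouped by labels, and replicate numbers follow record order and pair nothing. No 2 replicates held identical counts, and chi-square per degree of freedom between them was at least 1.64. No column was left unmapped (0).

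Members and lists were chosen with earlier results of these data known. Named accessions are NM_173010 and the 2 in each direction with the lowest p among those whose groups did not overlap. Of 874 symbols in 27 gene lists, 0 had a counted accession, so no list gave a value and no sum over the accessions of a gene was made. No accession had counts within 10% of those of a named one, by summed difference.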

Additional observations from a re-analysis of the deposited data

Results flagged for a closer look

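The deletion effect on NM_173010, a mouse accession of Ube3a, differed between the parental labels at P9 by 2.77 on the log2 scale (labelled maternal minus labelled paternal), by a test of the difference itself (unadjusted p = 4.2e-05, edgeR quasi-likelihood). Adjusted over all 5840 accessions the p was 0.148 (edgeR, Benjamini-Hochberg), and over the alternatives it ran from 0.0638 to 1 (edgeR or DESeq2, Benjamini-Hochberg), with a difference of 2.39 to 3.03. With the label paternal all 3 deletion libraries lay below all 3 WT libraries, and with the label maternal the groups overlapped. Libraries of the parental labels also differed in total counts and in the share of NR_137294.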

How the results depend on the processing

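For the deletion labelled maternal at P9, 0 accessions were called in 14 of 17 alternatives and 1, NM_001309242, with DESeq2, with no filter on low counts and with only the 6 libraries. NM_173010 was not called in any of 16 alternatives (only the 6 libraries left it out by the filter), and its log2 fold change was 0.012 without the 2 libraries highest in the cortex list (WT replicate 3 and deletion replicate 1), while leaving out 1 library gave -0.50 to 0.14. NM_009738 and NM_019790 kept their direction in 17 of 17 and NM_029967 in 14 of 14, none of them called. The filter on low counts left NM_029967 out with only the 6 libraries, with only the libraries labelled maternal and with thinning. With no filter, 2 accessions were called with the label paternal at P9 and 1 for the difference of labels at P9. With all libraries thinned to the smallest one, 0 were called with the label paternal at P9. The tissue lists and the fits that use them, every alternative in cortex, thinning with the label paternal, and leaving out libraries outside the main comparison were chosen after seeing the data. Leaving out 1 library gave 0 to 1 calls for each difference test (1 without deletion replicate 3 for P9 minus P2 and 1 without deletion replicate 3 labelled paternal for the difference of labels), and 0 to 321 in cortex labelled maternal at P9, where DESeq2 called 11. For NM_173010 the effect at P2 was 0.25 without WT replicate 1 and 0.10 without deletion replicate 1 of P2, with a range of -0.41 to 0.25, and P9 minus P2 ran from -0.37 to 0.29 with a library left out. No paired analysis was possible because the labels carry no replicate numbers. Tested accessions had a median of 11 counts per library. Thinning to the lowest total removed the call of NM_173010 with the label paternal at P9, though its log2 fold change was still -2.65. At that depth, therefore, the absence of a call does not show the absence of a large change. Beyond thinning, the part of depth in the low number of calls with the label maternal was not tested.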
